A study of Mus musculus with 9 samples.

Results

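The 43 genes described here are interferon-stimulated genes, taken from a list of gene names that are well-known targets of interferon signalling, with no measured value in the rule. They were measured in RNA sequencing libraries of mouse cardiac endothelium, and all 43 were found among the 18094 genes of the deposited table. Each had a count in all 9 libraries. All 43 also passed the filter on low counts and were tested among 15277 genes.

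Interferons are secreted proteins that warn cells of infection. Type I interferons act through the receptor pair Ifnar1 and Ifnar2 and the kinases Jak1 and Tyk2, and they assemble the factor ISGF3, which contains Stat2 and Irf9 and binds interferon-stimulated response elements (ISRE). Interferon gamma acts through Ifngr1 and Ifngr2 and leads to binding at gamma-activated sites (GAS). Endothelial cells respond to both, and the proteins they then make hinder viruses, tag other proteins with ISG15, and disrupt the vacuoles in which parasites and bacteria live.

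The study set endothelium from a mouse line with chronic hypertension against that of a normotensive line. BPH/2J mice are an inbred line selected for raised arterial pressure, and BPN/3J mice are its normal-pressure counterpart from the same selection. The groups were BPH/2J at 22 weeks, BPH/2J at 4 weeks and BPN/3J at 22 weeks, with 3 libraries each and no treatment or engineered allele in the labels. Endothelial cells were pulled from fresh heart tissue on Miltenyi microbeads before RNA extraction. Blood pressure and strain differ together and cannot be told apart, and the comparison of 4-week BPH/2J with BPN/3J differs in age as well. The labels do not say that libraries of a group came from separate animals, so p-values reflect the variation among these libraries alone, and that variation could be technical.

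Each library held 28806840 to 32913813 counted reads, and a count of 0 would allow up to 0.0921 to 0.105 CPM (reads of a gene scaled to library size), for counting error only. All CPM values carry edgeR's scaling factors (trimmed mean of M values, TMM). Adjusted p-values come from edgeR's two-sided quasi-likelihood test with Benjamini-Hochberg adjustment over all 15277 genes, and a gene is called changed below 0.05. The 10 endothelial markers summed to 14322 to 14560 CPM in 22-week BPH/2J, 13092 to 13604 CPM in 4-week BPH/2J and 11999 to 12436 CPM in BPN/3J. Of 16 macrophage and monocyte markers 15 were measured, none of them at 0 in all libraries, and they summed to 236 to 274 CPM in 22-week BPH/2J, 459.9 to 867 CPM in 4-week BPH/2J and 388 to 669.7 CPM in BPN/3J. In bulk samples, fewer cells of a type and less RNA per cell cannot be told apart.

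One library in each of 2 groups stood apart in the interferon genes. BPN/3J replicate 1 was higher than the mean of BPN/3J replicates 2 and 3 by a median ratio of 1.23 over the 43 genes, and 10 of the 43 exceeded 1.5, against 0.836% of all tested genes with a BPN/3J mean of at least 5 CPM. That limit was not applied to the 43 genes. Of the 10, 8 were guanylate-binding proteins or immunity-related GTPases. The others, Zbp1 and Mx1, had BPN/3J means of 2.18 and 1.06 CPM, below the limit. In the same library macrophage and monocyte markers summed to 669.7 CPM, against 388 and 436 CPM in BPN/3J replicates 2 and 3, and its lymphocyte and leukocyte markers summed to 124 CPM, against 115 and 114 CPM. Ifng, the gene of interferon gamma, was too low to be tested and had 7, 8 and 7 counts in 22-week BPH/2J, 1 count in each library of 4-week BPH/2J, and 29, 6 and 7 counts in BPN/3J. The part of those cells and of Ifng in the difference was not tested. Among the 4-week BPH/2J libraries, replicate 1 was lower, with a median ratio of 0.833 to the mean of replicates 2 and 3 over the 43 genes. That median was 0.991 over all tested genes with a 4-week mean of at least 5 CPM. Of those genes 3.28% exceeded 1.5, against 0 of the 43, so this library also differed outside the interferon genes. Its 8 fibroblast markers summed to 847 CPM, against 549.5 and 529.6 CPM in replicates 2 and 3. Its macrophage and monocyte markers summed to 459.9 CPM, against 644 and 867 CPM in replicates 2 and 3. Lymphocyte and leukocyte markers summed to 105 CPM in it, against 83.6 and 82.7 CPM. The part of these cells in the lower values of this library was not tested. Where leaving out either library changed a call of the 43 genes, or moved a called log2 fold change by over 1.5 times, this is stated below with the comparison or the gene.

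Fewer interferon-stimulated genes were higher than lower in hypertensive endothelium at 22 weeks. Against BPN/3J of the same age, 3 of the 43 genes were called higher and 17 lower in 22-week BPH/2J, and 23 were not called. Over all tested genes 38% were called, 19.8% higher and 18.2% lower. The median log2 fold change of the 43 genes was -0.25, against 0.02 over all tested genes, and 35 of the 43 were negative. In 21 genes every 22-week BPH/2J library lay below every BPN/3J library, and in 2 genes every one lay above. Of all tested genes 26.4% were separated in this way downward and 29.3% upward. The 7 falls of at least 1 on the log2 scale were those of Gbp6, Tgtp1, Mx1, Iigp1, Igtp, Xaf1 and Irgm2, of which 5 are interferon-inducible GTPases of the GBP and IRG families. All 3 genes called higher (Ifit3, Rsad2 and Ifi35) lost their calls when 1 of several libraries was left out. In the fit without 4-week BPH/2J replicate 1, which is in neither group, Herc6 (log2 fold change -0.44, adjusted p = 0.0174) and Parp14 (-0.25, adjusted p = 0.0253) were called lower too. Calls over all genes rose as well in that fit, from 5810 to 7117.

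Within BPH/2J, 14 of the genes were called between the ages. At 22 weeks 4 of the 43 genes were called higher and 10 lower than at 4 weeks, and 29 were not called, against 41% of all tested genes called, 19.9% higher and 21.1% lower. The median log2 fold change of the 43 genes was -0.22, and that of all tested genes was 0.01. Groups did not overlap in 9 genes that were lower and 5 that were higher at 22 weeks, against 25.7% and 25.5% of all tested genes. The falls with age included Ifi27l2a, Mx1, Ifi44, Cmpk2, Bst2 and Isg15. Without 4-week BPH/2J replicate 1 the number lower at 22 weeks was 16, with Usp18 (log2 fold change -0.51, adjusted p = 0.00888), Mx2 (-0.67, adjusted p = 0.00379), Stat2 (-0.58, adjusted p = 0.00107), Rtp4 (-0.52, adjusted p = 0.0209), Ddx58 (-0.25, adjusted p = 0.0118) and Trim25 (-0.23, adjusted p = 0.0317) added. Calls over all genes rose as well in that fit, from 6257 to 7383. The number lower at 22 weeks was 6 without 22-week BPH/2J replicate 1 or 3 or without 4-week BPH/2J replicate 2 or 3. In those fits calls over all genes fell to between 4606 and 4968. The number higher was 2 without 22-week BPH/2J replicate 2 or 4-week BPH/2J replicate 3.

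In 4-week BPH/2J against BPN/3J, 6 of the 43 genes were called higher and 17 lower, and 20 were not called. Of all tested genes 53.1% were called, 27.8% higher and 25.3% lower. The median log2 fold change was -0.16 over the 43 genes and 0.00 over all tested genes. Groups did not overlap in 17 genes that were lower and 5 that were higher, against 28.7% and 30.5% of all tested genes. The 6 higher genes were Isg15, Cmpk2, Rsad2, Ifi44, Oas1a and Ifi27l2a. Without 4-week BPH/2J replicate 1 the number higher was 11, with Usp18 (log2 fold change 0.61, adjusted p = 0.00272), Herc6 (0.58, adjusted p = 0.00459), Rtp4 (0.47, adjusted p = 0.0289), Bst2 (0.34, adjusted p = 0.0464) and Ddx58 (0.21, adjusted p = 0.022) added. Calls over all genes rose as well in that fit, from 8115 to 8682. The number higher was 8 without BPN/3J replicate 1, with Mx1 (log2 fold change 0.83, adjusted p = 0.0469) and Bst2 (0.42, adjusted p = 0.014) added. Without BPN/3J replicate 1, calls over all genes fell to 7387. The comparisons share libraries in pairs (22-week BPH/2J, 4-week BPH/2J or BPN/3J), so their values are given side by side and are not independent.

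**Figure D1:**
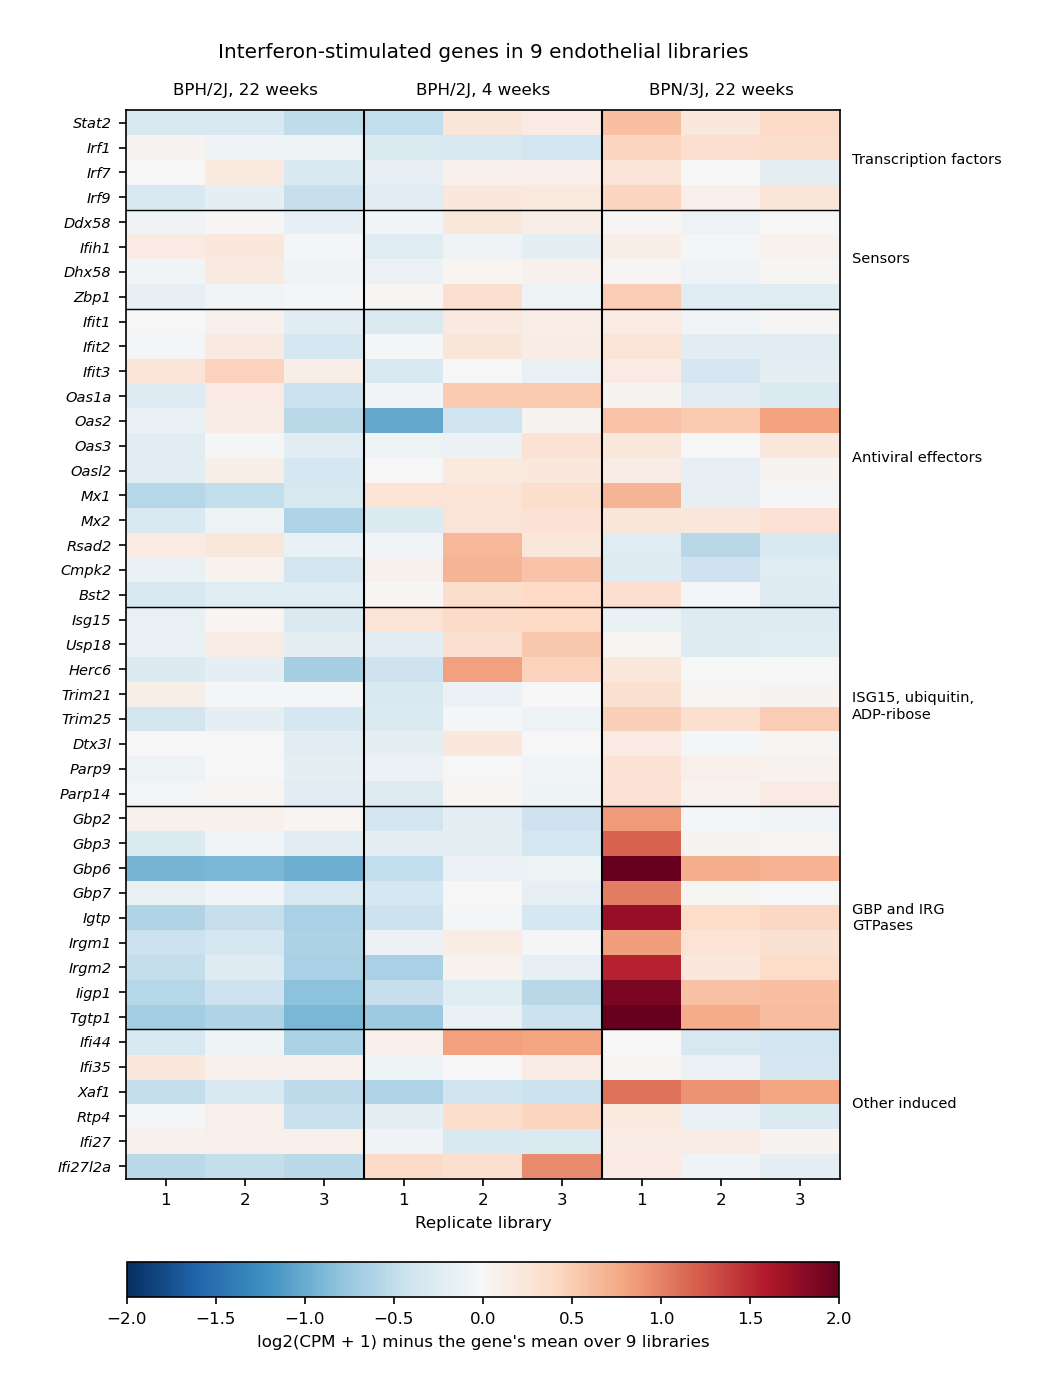
Level of each of the 43 interferon-stimulated genes in each library (columns, by group and replicate) as log2(CPM + 1) minus the mean of that gene over the 9 libraries, with genes in rows by role and values above 2 drawn in the darkest colour. The guanylate-binding proteins and immunity-related GTPases stand out in BPN/3J replicate 1 and lie above 0 in the other two BPN/3J libraries for most genes, while Isg15, Cmpk2 and Ifi44 are highest in 4-week BPH/2J.

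**Figure D2:**
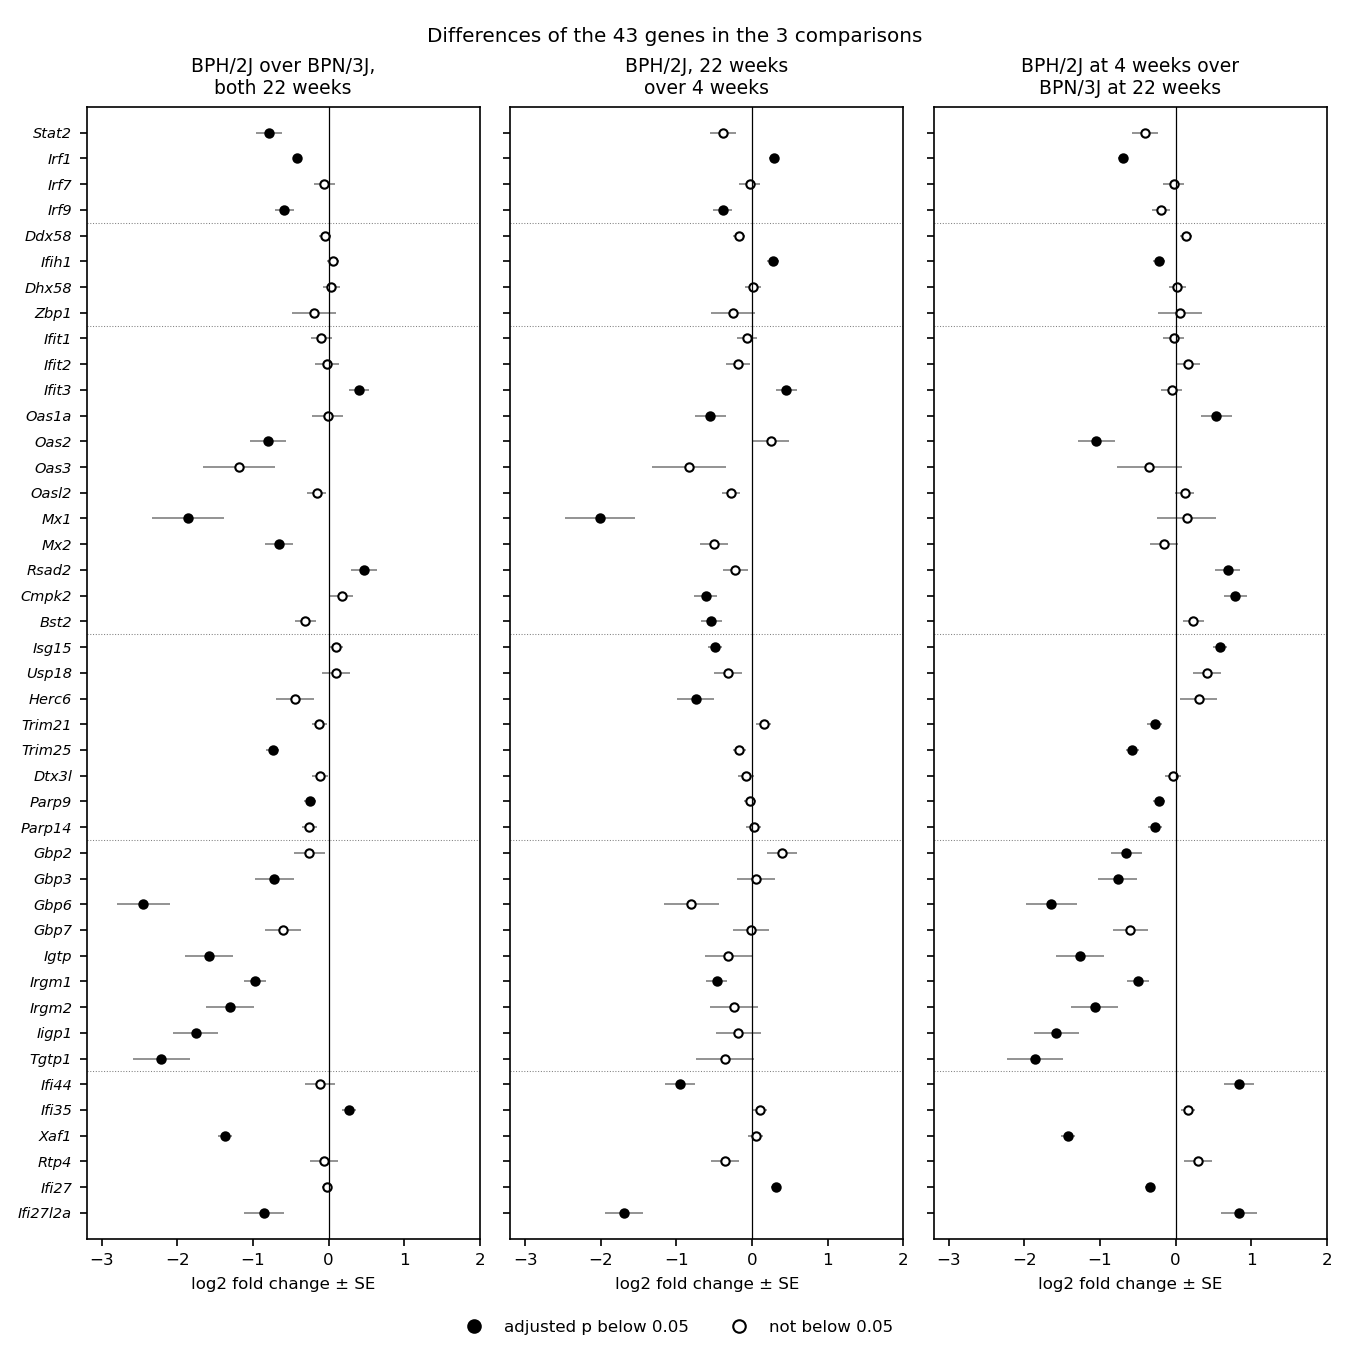
Log2 fold change ± SE of each gene in the 3 comparisons (panels), with filled points for an adjusted p below 0.05 in edgeR's quasi-likelihood test and positive values for higher in the group named first. In the left panel Gbp6, Tgtp1, Mx1 and Iigp1 lie farthest to the left, and in the middle panel 8 of the 9 GTPases are open points.

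Per length of transcript, the genes spanned a wide range. With CPM divided by gene length in kilobases, 33, 36 and 36 of the 43 genes lay above the median of all tested genes in 22-week BPH/2J, 4-week BPH/2J and BPN/3J, where that median was 5.22, 5.24 and 5.14 CPM per kilobase. Bst2, which tethers budding viruses to the cell surface, was the highest of the 43 in all 3 groups at 111, 162 and 138 CPM per kilobase. Oas3 was the lowest in all 3 groups at 0.0411, 0.0731 and 0.0946 CPM per kilobase. Iigp1 ranked 6th in 22-week BPH/2J, 7th in 4-week BPH/2J and 2nd in BPN/3J.

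Of the 4 transcription factors, Stat2, Irf9 and Irf1 were lower in 22-week BPH/2J than in BPN/3J, while Irf7 was not called in any comparison. Stat2, the Stat protein found only in ISGF3, measured 109.6, 111 and 96.6 CPM in 22-week BPH/2J, 97.5, 163 and 153 CPM in 4-week BPH/2J and 209.8, 159 and 179.9 CPM in BPN/3J. All 22-week BPH/2J libraries lay below all BPN/3J libraries, and the 4-week libraries were spread across both. Stat2 was 1.73-fold lower in 22-week BPH/2J than in BPN/3J (log2 fold change -0.79 ± 0.17, adjusted p = 0.0046). Its differences by age (log2 fold change -0.38 ± 0.17, adjusted p = 0.0929) and between 4-week BPH/2J and BPN/3J (log2 fold change -0.41 ± 0.17, adjusted p = 0.0642) were not called. Without 4-week BPH/2J replicate 1 the age difference was called, at a log2 fold change of -0.58 (adjusted p = 0.00107).

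Irf9 gives ISGF3 its contact with DNA and measured 78.1, 84.5 and 69.6 CPM in 22-week BPH/2J, 82.8, 111 and 110.2 CPM in 4-week BPH/2J and 130.2, 104 and 114 CPM in BPN/3J. No 22-week BPH/2J library reached the lowest BPN/3J library, whereas the lowest 4-week library fell inside the 22-week BPH/2J range. Irf9 was 1.498-fold lower in 22-week BPH/2J than in BPN/3J (log2 fold change -0.58 ± 0.12, adjusted p = 0.00432). It was also lower at 22 than at 4 weeks (log2 fold change -0.39 ± 0.12, adjusted p = 0.0279), a call lost without 22-week BPH/2J replicate 1 or 3 or 4-week BPH/2J replicate 2 or 3 (adjusted p 0.0746 to 0.113). Between 4-week BPH/2J and BPN/3J it was not called (log2 fold change -0.19 ± 0.12, adjusted p = 0.209).

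Irf1, a factor that interferon gamma induces quickly, measured 247, 224 and 225 CPM in 22-week BPH/2J, 196, 192 and 182 CPM in 4-week BPH/2J and 320.01, 301 and 305 CPM in BPN/3J. None of the 3 groups overlapped: BPN/3J was highest, 22-week BPH/2J was in between and 4-week BPH/2J was lowest. Irf1 was 1.33-fold lower in 22-week BPH/2J than in BPN/3J (log2 fold change -0.41 ± 0.06, adjusted p = 0.000573) and 1.63-fold lower in 4-week BPH/2J than in BPN/3J (log2 fold change -0.70 ± 0.06, adjusted p = 7.47e-06). At 22 weeks it was 1.22-fold higher than at 4 weeks (log2 fold change 0.29 ± 0.06, adjusted p = 0.00423). Irf7, the factor that drives most interferon alpha genes, measured 53.0, 60.3 and 42.6 CPM in 22-week BPH/2J, 46.8, 55.9 and 56.9 CPM in 4-week BPH/2J and 62.9, 53.1 and 46.1 CPM in BPN/3J, and its groups overlapped in every comparison.

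The 4 sensors of viral nucleic acid differed little between groups. Ddx58 (RIG-I) and Ifih1 (MDA5) bind viral RNA, Dhx58 (LGP2) modulates both, and Zbp1 senses Z-form nucleic acid and can trigger cell death. None of the 4 was called between 22-week BPH/2J and BPN/3J, with log2 fold changes from -0.19 to 0.06. Ifih1 measured 78.8, 81.7 and 68.7 CPM in 22-week BPH/2J, 59.2, 67.2 and 61.9 CPM in 4-week BPH/2J and 77.4, 68.5 and 74.1 CPM in BPN/3J. Its 22-week BPH/2J libraries all exceeded its 4-week libraries, and it was 1.22-fold higher at 22 weeks (log2 fold change 0.28 ± 0.08, adjusted p = 0.0163), a call lost without 22-week BPH/2J replicate 1 or 2 or 4-week BPH/2J replicate 3 (adjusted p 0.0529 to 0.0598). It was lower in 4-week BPH/2J than in BPN/3J (log2 fold change -0.22 ± 0.08, adjusted p = 0.0356), and that call was lost without 4-week BPH/2J replicate 1 or 3 or BPN/3J replicate 1 or 3 (adjusted p 0.0832 to 0.121). Zbp1 stayed between 1.60 and 3.34 CPM, with the highest value in BPN/3J replicate 1.

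The 12 antiviral effectors were called in both directions. Between 22-week BPH/2J and BPN/3J 2 were called higher and 3 lower, by age 1 higher and 4 lower, and between 4-week BPH/2J and BPN/3J 3 higher and 1 lower. That is 41.7%, 41.7% and 33.3% of the 12 called, against 38%, 41% and 53.1% of all tested genes in the same comparisons, which is near or below the background in each. The Ifit proteins bind foreign 5' RNA ends, and Ifit1 and Ifit2 were not called in any comparison. Ifit3 measured 41.3, 47.7 and 37.4 CPM in 22-week BPH/2J, 27.6, 34.0 and 30.7 CPM in 4-week BPH/2J and 38.6, 26.9 and 30.0 CPM in BPN/3J. Every 22-week BPH/2J library but replicate 3 exceeded the highest BPN/3J library, which was replicate 1. Ifit3 was 1.32-fold higher in 22-week BPH/2J than in BPN/3J (log2 fold change 0.40 ± 0.14, adjusted p = 0.0382), a call lost without 22-week BPH/2J replicate 1 or 2 or BPN/3J replicate 2 or 3 (adjusted p 0.0718 to 0.132). It was 1.37-fold higher at 22 than at 4 weeks (log2 fold change 0.45 ± 0.14, adjusted p = 0.0217), a call lost without 22-week BPH/2J replicate 2 or 4-week BPH/2J replicate 3 (adjusted p 0.0566 to 0.0763). A closely similar gene, Ifit3b, was not analysed here, and reads of such copies can be split by the counting.

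The Oas proteins sense double-stranded RNA and make a second messenger that leads to RNA breakdown. Oas2 measured 49.2, 60.0 and 36.8 CPM in 22-week BPH/2J, 25.9, 40.7 and 55.9 CPM in 4-week BPH/2J and 80.5, 78.0 and 95.4 CPM in BPN/3J. All 6 BPH/2J libraries lay below all BPN/3J libraries. Oas2 was 1.74-fold lower in 22-week BPH/2J than in BPN/3J (log2 fold change -0.80 ± 0.24, adjusted p = 0.0242), a call lost without 22-week BPH/2J replicate 1 or 3 or BPN/3J replicate 3 (adjusted p 0.0635 to 0.0936). It was 2.07-fold lower in 4-week BPH/2J than in BPN/3J (log2 fold change -1.05 ± 0.24, adjusted p = 0.00416). Oas1a, at 8.44 to 17.3 CPM, was lower at 22 than at 4 weeks (log2 fold change -0.55 ± 0.20, adjusted p = 0.0486) and higher in 4-week BPH/2J than in BPN/3J (log2 fold change 0.54 ± 0.20, adjusted p = 0.0427). The age call of Oas1a was lost without 22-week BPH/2J replicate 1 or 3, 4-week BPH/2J replicate 2 or 3 or BPN/3J replicate 1, 2 or 3 (adjusted p 0.0525 to 0.172), and the call between 4-week BPH/2J and BPN/3J without 22-week BPH/2J replicate 1, 4-week BPH/2J replicate 2 or 3 or BPN/3J replicate 2 or 3 (adjusted p 0.0564 to 0.14). Oas3, with at most 0.645 CPM in a library, and Oasl2 were not called in any comparison.

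The Mx proteins are dynamin-like GTPases that block viral nucleocapsids, and many laboratory mouse strains carry a defective Mx1 gene. Mx1 measured 0.195, 0.257 and 0.419 CPM in 22-week BPH/2J, 1.14, 1.14 and 1.26 CPM in 4-week BPH/2J and 1.86, 0.591 and 0.737 CPM in BPN/3J, from 6 to 55 counts per library. The 22-week BPH/2J libraries were the 3 lowest, and the highest value was in BPN/3J replicate 1. Mx1 was 3.63-fold lower in 22-week BPH/2J than in BPN/3J (log2 fold change -1.86 ± 0.47, adjusted p = 0.0109), and its log2 fold change was -1.18 (adjusted p = 0.0308) without BPN/3J replicate 1. It was 4.02-fold lower at 22 than at 4 weeks (log2 fold change -2.01 ± 0.46, adjusted p = 0.00625). Mx2 lay at 5.19 to 7.85 CPM in 22-week BPH/2J and at 10.2 to 10.7 CPM in BPN/3J, and it was lower in 22-week BPH/2J (log2 fold change -0.65 ± 0.19, adjusted p = 0.0185), a call lost without 22-week BPH/2J replicate 3 or BPN/3J replicate 3 (adjusted p 0.0557 to 0.0737).

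Rsad2 (viperin) makes a chain-terminating nucleotide that stops viral polymerases, and its neighbour Cmpk2 is a mitochondrial nucleotide kinase. Rsad2 measured 59.1, 62.1 and 47.8 CPM in 22-week BPH/2J, 51.0, 84.2 and 62.0 CPM in 4-week BPH/2J and 44.3, 35.7 and 42.3 CPM in BPN/3J. All 6 BPH/2J libraries exceeded all BPN/3J libraries. Rsad2 was 1.61-fold higher in 4-week BPH/2J than in BPN/3J (log2 fold change 0.69 ± 0.17, adjusted p = 0.00567). In 22-week BPH/2J it was 1.38-fold higher than in BPN/3J (log2 fold change 0.47 ± 0.17, adjusted p = 0.0493), a call lost without 22-week BPH/2J replicate 1 or 2, 4-week BPH/2J replicate 3 or BPN/3J replicate 1, 2 or 3 (adjusted p 0.0598 to 0.153). Cmpk2 measured 47.0, 54.1 and 39.6 CPM in 22-week BPH/2J, 54.7, 83.4 and 77.1 CPM in 4-week BPH/2J and 43.1, 38.3 and 43.1 CPM in BPN/3J. All 3 libraries of 4-week BPH/2J lay above every library of the other groups. Cmpk2 was 1.53-fold lower at 22 than at 4 weeks (log2 fold change -0.61 ± 0.15, adjusted p = 0.00847) and 1.73-fold higher in 4-week BPH/2J than in BPN/3J (log2 fold change 0.79 ± 0.15, adjusted p = 0.00134). Bst2 measured 82.1, 86.9 and 86.2 CPM in 22-week BPH/2J, 105, 131 and 136 CPM in 4-week BPH/2J and 130.3, 100.03 and 85.6 CPM in BPN/3J. Its 22-week BPH/2J libraries all lay below its 4-week libraries, and it was 1.45-fold lower at 22 weeks (log2 fold change -0.54 ± 0.14, adjusted p = 0.0111).

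ISG15 is a small protein that is joined to other proteins like ubiquitin, and Herc6 is the mouse enzyme that attaches it and Usp18 the one that removes it. Isg15 measured 20.9, 24.0 and 18.8 CPM in 22-week BPH/2J, 28.2, 30.5 and 31.1 CPM in 4-week BPH/2J and 21.1, 19.3 and 19.2 CPM in BPN/3J. The 4-week libraries stood above all others, and the 22-week libraries of both lines overlapped. Isg15 was 1.41-fold lower at 22 than at 4 weeks in BPH/2J (log2 fold change -0.49 ± 0.09, adjusted p = 0.00204) and 1.51-fold higher in 4-week BPH/2J than in BPN/3J (log2 fold change 0.59 ± 0.09, adjusted p = 0.000388). Usp18 was not called in any comparison with all libraries. Herc6 had 52.7, 56.3 and 40.1 CPM in 22-week BPH/2J, against 47.9, 113 and 88.7 CPM in 4-week BPH/2J, whose first library overlapped the 22-week range. It was lower at 22 weeks (log2 fold change -0.75 ± 0.25, adjusted p = 0.0339), a call lost without 22-week BPH/2J replicate 1 or 3 or 4-week BPH/2J replicate 2 or 3 (adjusted p 0.0731 to 0.139), with -0.46 on the log2 scale without 4-week BPH/2J replicate 2. Herc6 shares 1269 exon bases on the same strand with Gm45193 in GENCODE M21, so the counting may assign some reads to either gene.

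Trim25, the ubiquitin ligase that activates RIG-I, measured 257, 293 and 260.00 CPM in 22-week BPH/2J, 273, 327 and 309 CPM in 4-week BPH/2J and 462, 416 and 475 CPM in BPN/3J. No BPH/2J library of either age came near the BPN/3J range. Trim25 was 1.67-fold lower in 22-week BPH/2J (log2 fold change -0.74 ± 0.09, adjusted p = 0.000121) and 1.49-fold lower in 4-week BPH/2J (log2 fold change -0.58 ± 0.09, adjusted p = 0.000284) than in BPN/3J. The remaining genes of this role moved less. Parp9, an ADP-ribose transferase partner of the ligase Dtx3l, was lower in 22-week BPH/2J (log2 fold change -0.25 ± 0.07, adjusted p = 0.0255) and in 4-week BPH/2J (log2 fold change -0.22 ± 0.07, adjusted p = 0.0306) than in BPN/3J. Parp14, another ADP-ribose transferase (log2 fold change -0.27 ± 0.10, adjusted p = 0.0326), and Trim21, the cytosolic antibody receptor (log2 fold change -0.27 ± 0.10, adjusted p = 0.035), were lower in 4-week BPH/2J than in BPN/3J. The call of Parp9 in 22-week BPH/2J was lost without 22-week BPH/2J replicate 1 or 3 or BPN/3J replicate 1 (adjusted p 0.0794 to 0.108) and that in 4-week BPH/2J without 4-week BPH/2J replicate 1 or 3 or BPN/3J replicate 1 (adjusted p 0.0655 to 0.129). The call of Parp14 was lost without 4-week BPH/2J replicate 1 or 3 or BPN/3J replicate 1 or 3 (adjusted p 0.0655 to 0.121), and that of Trim21 without 4-week BPH/2J replicate 1 or 2 or BPN/3J replicate 1 (adjusted p 0.0667 to 0.147). Dtx3l was not called in any comparison. It shares 458 exon bases on the opposite strand with Parp9 in GENCODE M21, and since the strandedness of the libraries is not given in the sources used here, their reads may not be separable.

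The guanylate-binding proteins (GBP) and immunity-related GTPases (IRG) had the largest median differences from BPN/3J of the 6 roles. These GTPases are induced strongly by interferon gamma, and they coat and break the vacuoles of parasites and bacteria. All 9 had a negative log2 fold change in 22-week BPH/2J against BPN/3J, and 7 were called lower (77.8%, against 18.2% of all tested genes), with a median of -1.31. In 4-week BPH/2J against BPN/3J 8 of the 9 were called lower (88.9%, against 25.3%), with a median of -1.07. These medians without BPN/3J replicate 1 were -0.76 and -0.52, and 8 of the 9 were negative in 22-week BPH/2J, where Gbp2 turned positive. Between 22 and 4 weeks in BPH/2J 1 was called with all libraries, Irgm1 (11.1%, against 41% of all tested genes), and the median was -0.24. By age, Irgm1, Gbp6 and Igtp were called lower and Gbp2 higher when BPN/3J replicate 1 was left out. Calls over all genes by age numbered 6050 in that fit, against 6257 with all libraries. In BPN/3J replicate 1 the 9 genes were 1.46 to 2.79 times the mean of replicates 2 and 3, and 8 of the 9 exceeded 1.5 times.

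The 3 IRG genes below carry a GAS followed closely by an ISRE core, and they are shown because they lie in the group that moved together. The lines give RefSeq sequence of build GRCm38.p6, 5' to 3' in the direction of transcription, with capitals for the bases of each motif. Igtp is at chr11:58199501-58199541 on the plus strand, Irgm2 at chr11:58214892-58214932 on the plus strand and Tgtp1 at chr11:48992304-48992344 on the minus strand, all on chromosome 11.
Igtp: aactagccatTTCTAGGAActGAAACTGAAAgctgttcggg
Irgm2: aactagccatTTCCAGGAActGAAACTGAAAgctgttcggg
Tgtp1: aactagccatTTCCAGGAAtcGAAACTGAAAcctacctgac
The Igtp and Irgm2 segments are identical at 40 of 41 bases, and the Irgm2 and Tgtp1 segments at 32 of 41. In each the ISRE core begins 11 bases after the first base of the GAS.

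Igtp (Irgm3), Irgm1 and Irgm2 are regulatory IRG proteins that sit on the membranes of the cell itself. Igtp measured 40.9, 45.4 and 39.6 CPM in 22-week BPH/2J, 46.0, 61.4 and 49.1 CPM in 4-week BPH/2J and 211, 80.9 and 83.8 CPM in BPN/3J. Every BPH/2J library lay below every BPN/3J library, and BPN/3J replicate 1 was far above the other two. Igtp was 2.99-fold lower in 22-week BPH/2J than in BPN/3J (log2 fold change -1.58 ± 0.32, adjusted p = 0.00313) and 2.40-fold lower in 4-week BPH/2J (log2 fold change -1.26 ± 0.31, adjusted p = 0.00606). The age difference was not called (log2 fold change -0.31 ± 0.31, adjusted p = 0.453), but without BPN/3J replicate 1 it was called at -0.31 (adjusted p = 0.0399). Without BPN/3J replicate 1 the log2 fold changes were -0.97 (adjusted p = 0.000304) and -0.66 (adjusted p = 0.00131). Irgm2 measured 45.1, 52.7 and 40.2 CPM in 22-week BPH/2J, 40.0, 66.4 and 56.4 CPM in 4-week BPH/2J and 185, 73.6 and 82.3 CPM in BPN/3J. Its BPN/3J libraries lay above all BPH/2J libraries, whose ages overlapped, and it was 2.47-fold lower in 22-week BPH/2J (log2 fold change -1.31 ± 0.32, adjusted p = 0.00853) and 2.10-fold lower in 4-week BPH/2J (log2 fold change -1.07 ± 0.31, adjusted p = 0.0148) than in BPN/3J. The log2 fold changes of Irgm2 without BPN/3J replicate 1 were -0.76 (adjusted p = 0.0124) and -0.52 (adjusted p = 0.0402). Igtp and Irgm2 share 162 exon bases on the same strand in GENCODE M21, so the counting may assign some of their reads to either gene.

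Irgm1 measured 77.3, 81.8 and 66.9 CPM in 22-week BPH/2J, 95.7, 115 and 102 CPM in 4-week BPH/2J and 187, 126 and 129 CPM in BPN/3J. The 3 groups were separate, with 22-week BPH/2J lowest, 4-week BPH/2J in between and BPN/3J highest. Irgm1 was 1.96-fold lower in 22-week BPH/2J than in BPN/3J (log2 fold change -0.97 ± 0.14, adjusted p = 0.000549) and 1.41-fold lower in 4-week BPH/2J than in BPN/3J (log2 fold change -0.50 ± 0.14, adjusted p = 0.0132), where the log2 fold change was -0.29 (adjusted p = 0.0355) without BPN/3J replicate 1. It was lower at 22 than at 4 weeks (log2 fold change -0.47 ± 0.14, adjusted p = 0.024), a call lost without 22-week BPH/2J replicate 1 or 3 or 4-week BPH/2J replicate 2 or 3 (adjusted p 0.0551 to 0.0958).

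Iigp1 (Irga6) and Tgtp1 (Irgb6) are effector IRG proteins that load onto the vacuole of Toxoplasma. Iigp1 measured 105, 116 and 87.0 CPM in 22-week BPH/2J, 112, 131 and 106 CPM in 4-week BPH/2J and 572, 233 and 237 CPM in BPN/3J. Both BPH/2J groups lay below all BPN/3J libraries and overlapped each other. Iigp1 was 3.39-fold lower in 22-week BPH/2J (log2 fold change -1.76 ± 0.30, adjusted p = 0.00132) and 2.99-fold lower in 4-week BPH/2J (log2 fold change -1.58 ± 0.30, adjusted p = 0.00128) than in BPN/3J. Tgtp1 measured 6.94, 7.43 and 5.80 CPM in 22-week BPH/2J, 6.69, 10.7 and 8.50 CPM in 4-week BPH/2J and 54.5, 20.3 and 18.7 CPM in BPN/3J. It was 4.64-fold lower in 22-week BPH/2J (log2 fold change -2.21 ± 0.38, adjusted p = 0.00125) and 3.63-fold lower in 4-week BPH/2J (log2 fold change -1.86 ± 0.37, adjusted p = 0.00166) than in BPN/3J. Without BPN/3J replicate 1 the log2 fold changes of Tgtp1 were -1.54 (adjusted p = 0.00029) and -1.18 (adjusted p = 0.000588). Its near-identical neighbour Tgtp2 measured 22.3, 22.2 and 17.8 CPM in 22-week BPH/2J, 17.6, 36.9 and 27.9 CPM in 4-week BPH/2J and 119, 47.1 and 40.9 CPM in BPN/3J, and since reads of the pair can be split by the counting, the values of each are uncertain on their own.

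Gbp6 had the largest fall of the 43 genes in 22-week BPH/2J against BPN/3J. It measured 6.13, 6.24 and 5.96 CPM in 22-week BPH/2J, 8.71, 11.5 and 11.8 CPM in 4-week BPH/2J and 57.6, 21.4 and 21.1 CPM in BPN/3J. The 3 groups did not overlap, with 22-week BPH/2J lowest and its libraries close together. Gbp6 was 5.46-fold lower in 22-week BPH/2J (log2 fold change -2.45 ± 0.36, adjusted p = 0.000484) and 3.13-fold lower in 4-week BPH/2J (log2 fold change -1.65 ± 0.34, adjusted p = 0.00213) than in BPN/3J. Without BPN/3J replicate 1 these log2 fold changes were -1.799 (adjusted p = 2.08e-05) and -0.99 (adjusted p = 0.00025). The age difference was not called (log2 fold change -0.80 ± 0.36, adjusted p = 0.0992), but it was called at -0.80 (adjusted p = 0.00113) in the fit without that library. Gbp6 shares 1792 exon bases on the same strand with Gbp10 in GENCODE M21, and Gbp10 was not analysed here. It also shares 1726 exon bases on the same strand with another protein-coding gene of the same symbol, Gbp6. The counting may therefore assign some reads to any of these genes, and the values of Gbp6 are uncertain on their own.

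Gbp2, Gbp3 and Gbp7 lie together on chromosome 3 and carry ISRE cores near their starts. Their segments from RefSeq, build GRCm38.p6, show the motifs in capitals, with ISRE cores in all 3 and a pair of GAS in Gbp7. Gbp2 is at chr3:142620594-142620623 on the plus strand, Gbp3 at chr3:142559989-142560024 on the plus strand and Gbp7 at chr3:142530220-142530302 on the plus strand.
Gbp2: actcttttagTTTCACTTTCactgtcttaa
Gbp3: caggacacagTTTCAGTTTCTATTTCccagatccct
Gbp7: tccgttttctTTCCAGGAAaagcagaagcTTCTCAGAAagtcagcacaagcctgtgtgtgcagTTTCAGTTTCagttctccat
In Gbp3 overlapping ISRE cores make one longer run of capitals. Gbp2 measured 183, 184 and 177 CPM in 22-week BPH/2J, 134, 150.3 and 129 CPM in 4-week BPH/2J and 314, 169 and 166 CPM in BPN/3J. The 22-week BPH/2J libraries lay above BPN/3J replicates 2 and 3 and below replicate 1. Gbp2 was 1.57-fold lower in 4-week BPH/2J than in BPN/3J (log2 fold change -0.65 ± 0.20, adjusted p = 0.0199). That call was lost without 4-week BPH/2J replicate 3 (adjusted p = 0.0607), and without BPN/3J replicate 1 the log2 fold change was -0.28 (adjusted p = 0.012). Between 22-week BPH/2J and BPN/3J it was not called (log2 fold change -0.25 ± 0.20, adjusted p = 0.345), and the sign turned without BPN/3J replicate 1, at 0.12 (adjusted p = 0.265). The age difference of Gbp2 was not called (log2 fold change 0.40 ± 0.20, adjusted p = 0.142), but without that library it was called higher at 22 weeks, at 0.40 (adjusted p = 0.00172).

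Gbp3 measured 74.5, 86.7 and 77.5 CPM in 22-week BPH/2J, 79.5, 79.9 and 70.8 CPM in 4-week BPH/2J and 206, 94.3 and 91.7 CPM in BPN/3J. All 6 BPH/2J libraries lay below the 3 BPN/3J libraries, whose replicates 2 and 3 stood only slightly above them. Gbp3 was 1.64-fold lower in 22-week BPH/2J than in BPN/3J (log2 fold change -0.72 ± 0.26, adjusted p = 0.048), a call lost without 22-week BPH/2J replicate 1, 2 or 3, 4-week BPH/2J replicate 2 or 3 or BPN/3J replicate 1 (adjusted p 0.0576 to 0.125). Its log2 fold change was -0.23 without BPN/3J replicate 1. It was 1.70-fold lower in 4-week BPH/2J than in BPN/3J (log2 fold change -0.77 ± 0.26, adjusted p = 0.0268), a call lost without 4-week BPH/2J replicate 2 or 3 (adjusted p 0.0522 to 0.0768), and its log2 fold change was -0.28 (adjusted p = 0.0206) without BPN/3J replicate 1. Gbp7 measured 174, 185 and 153 CPM in 22-week BPH/2J, 151, 194 and 172 CPM in 4-week BPH/2J and 394, 196 and 191 CPM in BPN/3J. It was the only one of the 9 GTPases called in none of the comparisons, with adjusted p = 0.0662 in 22-week BPH/2J and adjusted p = 0.0556 in 4-week BPH/2J against BPN/3J.

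**Figure D3:**
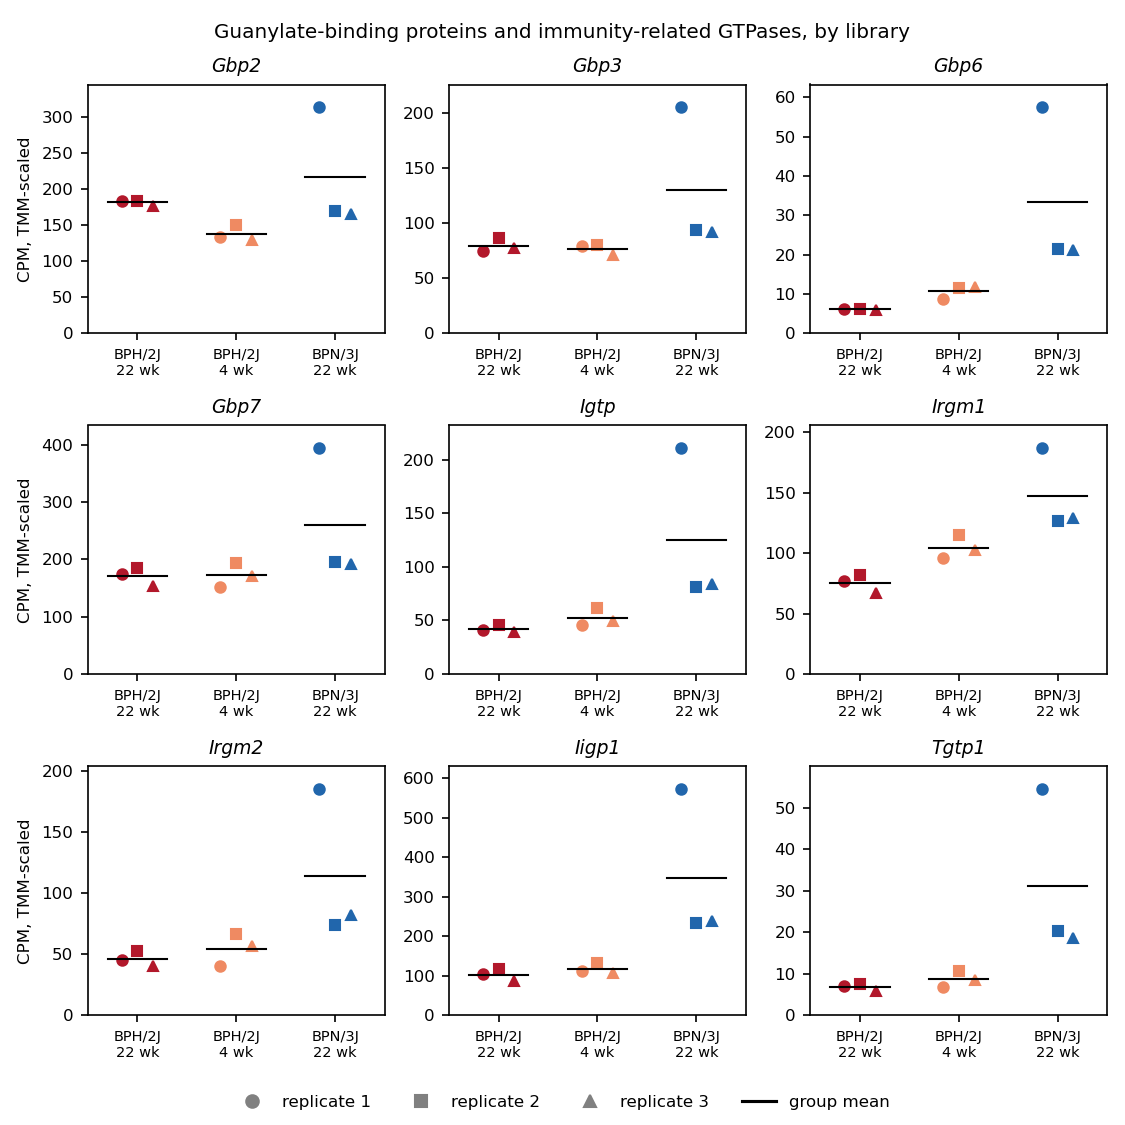
TMM-scaled CPM of the 9 GBP and IRG genes (panels) in each library, with symbols for the replicate and a line for the mean of each group; each axis starts at 0. BPN/3J replicate 1 is the highest point of every panel, and BPN/3J replicates 2 and 3 lie above all BPH/2J libraries in every panel except that of Gbp2 and, for 1 library of 4-week BPH/2J against BPN/3J replicate 3, that of Gbp7.

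Without BPN/3J replicate 1, 6 of the 9 GTPases were still called lower in 22-week BPH/2J and 8 of the 9 in 4-week BPH/2J. For Iigp1 the log2 fold changes were then -1.20 in 22-week BPH/2J (adjusted p = 0.000132) and -1.01 in 4-week BPH/2J (adjusted p = 0.000145). Over all 43 genes 14 were then called lower and 2 higher in 22-week BPH/2J, and 13 lower and 8 higher in 4-week BPH/2J. Calls over all genes against BPN/3J numbered 5053 for 22-week and 7387 for 4-week BPH/2J in that fit. With all libraries they numbered 5810 (38% of the genes tested) and 8115 (53.1%). Cardiomyocyte markers, all 14 of them measured and none at 0 in all libraries, summed to 527 to 641 CPM in 22-week BPH/2J, 401 to 649 CPM in 4-week BPH/2J and 956 to 1151 CPM in BPN/3J. Of the 13 tested, 9 were called lower in 22-week and 11 in 4-week BPH/2J than in BPN/3J, against 18.2% and 25.3% of all tested genes. Within BPN/3J the sum was 956 CPM in replicate 1, against 1151 and 994 CPM in replicates 2 and 3. For macrophage and monocyte markers the sums were those given above, and of the 15 tested 1 was called higher and 9 lower in 22-week BPH/2J, and 2 higher and 1 lower in 4-week BPH/2J. Of all tested genes 19.8% were called higher and 18.2% lower in 22-week BPH/2J, and 27.8% higher and 25.3% lower in 4-week BPH/2J. The part of either cell type in the GTPase differences was not tested.

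The 6 remaining interferon-induced genes split between the lines and the ages. Xaf1, a pro-apoptotic antagonist of XIAP, measured 61.8, 70.3 and 59.7 CPM in 22-week BPH/2J, 56.3, 65.3 and 64.2 CPM in 4-week BPH/2J and 184, 162 and 149.9 CPM in BPN/3J. Both BPH/2J groups overlapped each other and lay far below BPN/3J. Xaf1 was 2.59-fold lower in 22-week BPH/2J (log2 fold change -1.37 ± 0.09, adjusted p = 2.96e-06) and 2.68-fold lower in 4-week BPH/2J (log2 fold change -1.42 ± 0.09, adjusted p = 1.27e-06) than in BPN/3J, and it was not called by age (log2 fold change 0.05 ± 0.09, adjusted p = 0.721). Ifi44 measured 23.5, 27.6 and 18.7 CPM in 22-week BPH/2J, 31.5, 52.5 and 51.4 CPM in 4-week BPH/2J and 29.7, 23.4 and 22.3 CPM in BPN/3J. All 4-week libraries exceeded all others, and those at 22 weeks overlapped between the lines. Ifi44 was 1.94-fold lower at 22 than at 4 weeks (log2 fold change -0.96 ± 0.20, adjusted p = 0.00372) and 1.795-fold higher in 4-week BPH/2J than in BPN/3J (log2 fold change 0.84 ± 0.20, adjusted p = 0.00486).

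Ifi27l2a, which encodes a small hydrophobic protein, was scarce and measured 1.01, 1.09 and 0.999 CPM in 22-week BPH/2J, 2.81, 2.62 and 4.60 CPM in 4-week BPH/2J and 2.26, 1.77 and 1.58 CPM in BPN/3J. Its groups did not overlap, with 4-week BPH/2J highest, BPN/3J in between and 22-week BPH/2J lowest. It was 3.24-fold lower at 22 than at 4 weeks (log2 fold change -1.69 ± 0.26, adjusted p = 0.000552). In 22-week BPH/2J it was lower than in BPN/3J (log2 fold change -0.86 ± 0.27, adjusted p = 0.0282), a call lost without 22-week BPH/2J replicate 1, 2 or 3 or BPN/3J replicate 1 or 2 (adjusted p 0.0544 to 0.0989). In 4-week BPH/2J it was higher than in BPN/3J (log2 fold change 0.84 ± 0.24, adjusted p = 0.0133), a call lost without 4-week BPH/2J replicate 3 or BPN/3J replicate 3 (adjusted p 0.0535 to 0.062), with 0.53 on the log2 scale without 4-week BPH/2J replicate 3. Ifi27 measured 102, 103 and 104 CPM in 22-week BPH/2J, 91.3, 77.8 and 78.4 CPM in 4-week BPH/2J and 106, 106 and 100.0 CPM in BPN/3J. The 4-week libraries were lowest, and Ifi27 was 1.25-fold higher at 22 than at 4 weeks (log2 fold change 0.32 ± 0.07, adjusted p = 0.00375) and 1.26-fold lower in 4-week BPH/2J than in BPN/3J (log2 fold change -0.34 ± 0.07, adjusted p = 0.00173). Ifi35, at 35.6 to 52.4 CPM, was 1.20-fold higher in 22-week BPH/2J than in BPN/3J (log2 fold change 0.27 ± 0.09, adjusted p = 0.0453), a call lost without 22-week BPH/2J replicate 1, 2 or 3, 4-week BPH/2J replicate 2 or BPN/3J replicate 2 or 3 (adjusted p 0.0549 to 0.15), with 0.18 on the log2 scale without BPN/3J replicate 3. Rtp4 was not called in any comparison with all libraries.

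**Figure D4:**
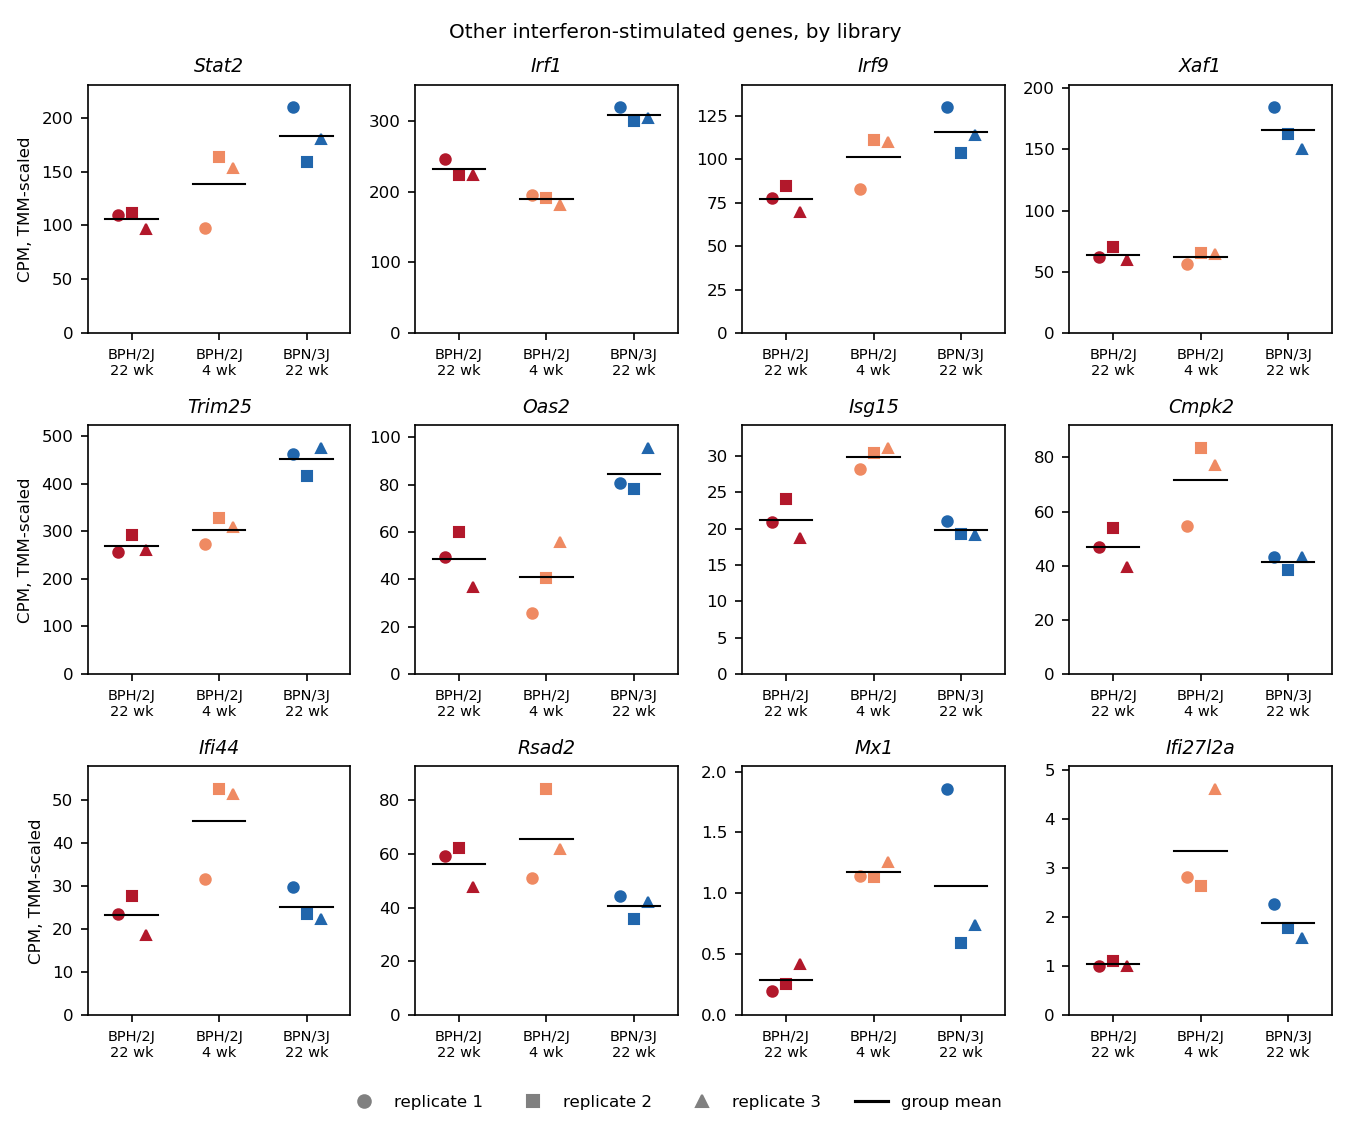
TMM-scaled CPM of 12 further interferon-stimulated genes (panels) in each library, with symbols for the replicate and a line for the mean of each group; each axis starts at 0. Stat2, Xaf1, Trim25 and Oas2 separate 22-week BPH/2J from BPN/3J, whereas Isg15, Cmpk2 and Ifi44 are highest in the 3 libraries of 4-week BPH/2J.

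RefSeq promoter windows (build GRCm38.p6) were found for 30 of the 43 genes. In the 250 bases before each gene start, the ISRE core, here the letters GAAA, any 2 bases and GAAA again, on either strand, occurred in 15 of the 30 genes (50%), against 3.46% of 27025 genes in the table. The GAS letters TTCNNNGAA, which read alike on both strands, occurred in 8 of the 30 (26.7%), against 8.13%, and both motifs in 6 (20%), against 0.459%. Only in Bst2 did an ISRE core overlap a GAS. By role, 7 of 7 matched GTPases held an ISRE core and 4 a GAS, 6 of 9 antiviral effectors held an ISRE core, and neither motif was found for the 3 matched genes among the remaining interferon-induced ones, Xaf1 and Ifi44 included. Such letters are a description of the sequence and do not show that a factor binds there.

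Segments of 3 genes from other roles illustrate the range. Isg15, at chr4:156200865-156200906 on the minus strand, holds a run of 3 overlapping ISRE cores, Ifit1, at chr19:34640775-34640823 on the plus strand, holds 2 that are apart, and Irf1, at chr11:53769914-53769942 on the plus strand, holds a GAS and no ISRE core. Capitals mark the motifs.
Isg15: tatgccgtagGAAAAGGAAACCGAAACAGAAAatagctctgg
Ifit1: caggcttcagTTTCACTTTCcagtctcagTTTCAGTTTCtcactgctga
Irf1: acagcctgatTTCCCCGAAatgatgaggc
Isg15 was higher in 4-week BPH/2J than in BPN/3J, Irf1 was lower, and Ifit1 was not called, as given above.

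**Figure D5:**
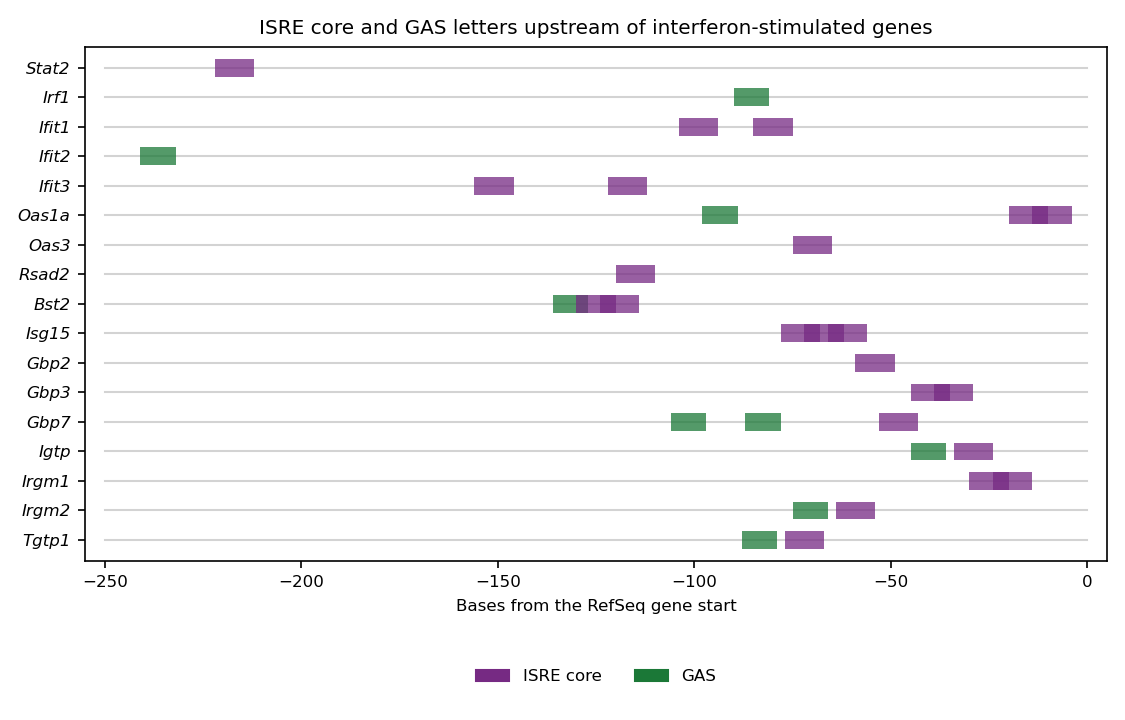
Places of ISRE cores (purple) and GAS letters (green) in the 250 bases upstream of the RefSeq gene start (0 on the axis, in bases) of the 17 matched genes that hold at least 1 of them. All 7 matched GTPases have an ISRE core, and in Igtp, Irgm2 and Tgtp1 it follows a GAS at the same distance.

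Around the 43 genes, 182 further genes of the interferon pathway were listed, of which 147 were measured and 140 tested. In 22-week BPH/2J against BPN/3J 27 of the 140 were called higher and 36 lower (19.3% and 25.7%, against 19.8% and 18.2% of all tested genes). Between 22 and 4 weeks 38 were higher and 32 lower (27.1% and 22.9%, against 19.9% and 21.1%), and in 4-week BPH/2J against BPN/3J 34 were higher and 48 lower (24.3% and 34.3%, against 27.8% and 25.3%). Among the 12 inhibitors 1 was higher and 3 lower in 22-week BPH/2J against BPN/3J, 2 higher and 1 lower by age, and 2 higher and 5 lower in 4-week BPH/2J against BPN/3J. In total 33.3%, 25% and 58.3% of the inhibitors were called, against 38%, 41% and 53.1% of all tested genes. Among the 22 genes that induce interferon, Toll-like receptors and Irf genes included, 4 were higher and 8 lower, 2 higher and 10 lower, and 7 higher and 5 lower in the same 3 comparisons, which is 54.5% called in each.

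Both chains of the type I interferon receptor were higher in 22-week BPH/2J than in BPN/3J: Ifnar1 measured 151, 157 and 154 CPM in 22-week BPH/2J, 146, 148 and 139 CPM in 4-week BPH/2J and 105, 106 and 105 CPM in BPN/3J, with a log2 fold change of 0.55 ± 0.05 (adjusted p = 2.48e-05). Ifnar2 measured 80.1, 81.0 and 79.6 CPM in 22-week BPH/2J, 64.6, 65.2 and 65.8 CPM in 4-week BPH/2J and 57.7, 60.0 and 54.9 CPM in BPN/3J, with a log2 fold change of 0.48 ± 0.05 (adjusted p = 6.62e-05). BPN/3J was lowest for both chains, with no overlap. Ifnlr1, the specific chain of the lambda interferon receptor, measured 3.89, 5.34 and 4.06 CPM in 22-week BPH/2J, 2.74, 2.65 and 2.06 CPM in 4-week BPH/2J and 0.0675, 0.208 and 0.140 CPM in BPN/3J. Its BPN/3J libraries held only 2, 6 and 4 counts, and it was 31.2-fold higher in 22-week BPH/2J (log2 fold change 4.96 ± 0.31, adjusted p = 1.77e-06) and 17.5-fold higher in 4-week BPH/2J (log2 fold change 4.13 ± 0.33, adjusted p = 3.9e-06).

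For interferon gamma receptors, Ifngr1 was higher at 22 than at 4 weeks (log2 fold change 0.44 ± 0.06, adjusted p = 0.000231) and lower in 4-week BPH/2J than in BPN/3J (log2 fold change -0.38 ± 0.06, adjusted p = 0.000292). Ifngr2 ran the other way, lower at 22 than at 4 weeks (log2 fold change -0.45 ± 0.06, adjusted p = 0.000363) and higher in 4-week BPH/2J than in BPN/3J (log2 fold change 0.31 ± 0.06, adjusted p = 0.00207). Neither was called between 22-week BPH/2J and BPN/3J. Jak1 and Jak2, the kinases, were lower at 22 than at 4 weeks (-0.19 and -0.19 on the log2 scale, adjusted p = 0.0235 and 0.0149) and higher in 4-week BPH/2J than in BPN/3J (0.30 and 0.40, adjusted p = 0.00142 and 0.000128). The age calls of Jak1 and Jak2 were lost without 22-week BPH/2J replicate 1 or 3 or 4-week BPH/2J replicate 2 or 3 (adjusted p 0.0704 to 0.104) for Jak1 and without 22-week BPH/2J replicate 1 or 3 or 4-week BPH/2J replicate 2 or 3 (adjusted p 0.0583 to 0.0762) for Jak2. Jak2 was also higher in 22-week BPH/2J than in BPN/3J (log2 fold change 0.21 ± 0.05, adjusted p = 0.0122), a call lost without 22-week BPH/2J replicate 2 (adjusted p = 0.0538). Il10rb, the shared chain of the lambda receptor, was higher at 22 than at 4 weeks (log2 fold change 0.55 ± 0.06, adjusted p = 5.62e-05) and lower in 4-week BPH/2J than in BPN/3J (log2 fold change -0.43 ± 0.06, adjusted p = 0.00012). Tyk2 and Stat3 were not called in any comparison.

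Other pathway genes with large differences included both directions. In 22-week BPH/2J against BPN/3J, Tnfsf10 (TRAIL), a ligand that can trigger cell death, and Sp110 were higher, with log2 fold changes of 1.19 and 1.15. The lower ones were Tlr8 (-2.38), Irf8 (-2.06), Cxcl9 (-1.78), Tgtp2 (-1.73), Cish (-1.09) and Tlr7 (-1.01). The call of Tlr7 was lost without 22-week BPH/2J replicate 1 or 2 or BPN/3J replicate 1 or 3 (adjusted p 0.0886 to 0.101), and without BPN/3J replicate 1 the log2 fold changes of Cxcl9 and Tgtp2 were -1.14 and -1.08. Irf8, a factor of macrophages and dendritic cells, measured 13.4, 11.3 and 14.6 CPM in 22-week BPH/2J and 61.3, 55.5 and 46.6 CPM in BPN/3J. The RNA sensors Tlr7 and Tlr8 are typical of leukocytes. In the same comparison 9 of the 15 macrophage and monocyte markers were lower and 1 higher, against 18.2% and 19.8% of all tested genes. The part of those cells was not tested.

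By age, Plscr2 (1.31) and Casp1 (1.29) were higher at 22 than at 4 weeks, and Pttg1 (-1.17) and Tlr7 (-1.14) were lower. Of the 15 macrophage and monocyte markers 11 were lower and 1 was higher, against 21.1% and 19.9% of all tested genes. The age call of Tlr7 was lost without 22-week BPH/2J replicate 1 or 2 or 4-week BPH/2J replicate 3 (adjusted p 0.0515 to 0.0735). In 4-week BPH/2J against BPN/3J Cish (-1.50), Cxcl9 (-1.36), Tgtp2 (-1.33), Irf8 (-1.30), Irf2bp2 (-1.06), Aim2 (-1.05) and Batf2 (-1.02) were lower. The call of Batf2 was lost without 4-week BPH/2J replicate 2 or 3 or BPN/3J replicate 1 (adjusted p 0.0633 to 0.0731). Without BPN/3J replicate 1 the log2 fold changes of Batf2, Cxcl9 and Tgtp2 were -0.34, -0.72 and -0.68.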

How the data were processed

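Per the labels, polyA RNA of bead-sorted cardiac endothelium was fragmented, copied with random hexamers and read as 100-cycle single reads on a HiSeq 2000. Per the submitters' processing notes, build mm9 was used with TopHat2 2.0.13 and Bowtie2, and the notes also list featureCounts (Subread), edgeR, FastQC and CASAVA 1.8.2, with no settings. Strandedness and annotation release are not given in the sources used here. Raw counts were deposited by the authors for 18094 genes, with a total of at least 10 counts each. The deposited CPM values equal each count over its column total and carry no further factor, which was checked on the file. Log2 fold changes and p-values with FDR were also deposited from comparisons of the authors, with a model that the sources used here do not describe. The deposited lengths served for levels per kilobase only.

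Counts were filtered with filterByExpr and fitted on group over all 9 libraries with TMM scaling in edgeR 4.0.16 (quasi-likelihood F test, two-sided, Benjamini-Hochberg, threshold 0.05) in R 4.3.3. Each SE was derived from F and the log2 fold change (size divided by the root of F). The pipeline was tested on simulated data. Printed CPM carry TMM scaling, and the heat map adds 1 CPM before the logarithm. The members and all lists were chosen with earlier results of these data known. All 43 members are described. Library values are given for the transcription factors and for called members with a log2 fold change of at least 1, and for others where a result turns on them. Of the further pathway genes, the receptors, Jak and Stat genes are named, and others that were called with a log2 fold change of at least 1 and a mean of at least 5 CPM; a few that met this rule are not reported here. Ifng, Ifit3b, Gbp10 and genes of the closing section were named after values were seen. Alternatives were other scalings, no filter, DESeq2 1.42.0, the non-legacy fit, a block for the replicate number, fits on only the groups compared, and leaving out each library. Exon overlaps come from GENCODE M21 and promoter windows from RefSeq, both of build GRCm38, used for names and sequence and not joined to mm9 coordinates. Exon bases are shared with another gene in 17 of the 43 members, not all of which are named above. Gbp7 shares 637 bases on the same strand with the pseudogene Gm43802, and Tgtp1 shares 223 with Gm12185. For 13 members no promoter window was used here. Figures were drawn with Python 3.11.15 and matplotlib 3.10.9.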

Additional observations from a re-analysis of the deposited data

How the results depend on the processing

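No call among the 43 genes or the named pathway genes, Cxcl10 and Gbp5 included, changed direction under any alternative, and 77 values that were never called changed sign at sizes up to 0.25 on the log2 scale. Of the calls, 12 of 20 for 22-week BPH/2J over BPN/3J, 8 of 14 by age and 15 of 23 for 4-week BPH/2J over BPN/3J held in all alternatives, and the same numbers held in all fits that left out 1 library. The 3 members higher in 22-week BPH/2J than in BPN/3J became 1 with median-of-ratios (RLE) factors. Equal replicate numbers are not stated to pair the libraries. Residual correlations of same-numbered libraries ran from -0.364 to 0.207 over 9096 genes. Libraries of different numbers were not compared in this way, so these values cannot decide whether libraries are paired. With the replicate block the number of members higher in 22-week BPH/2J than in BPN/3J was 0, and the other counts of members and pathway genes stayed within 1.5 times. Leaving out 1 library gave 0 to 3 members higher for 22-week BPH/2J over BPN/3J (0 without 22-week BPH/2J replicate 1 or 2 or BPN/3J replicate 2 or 3). By age it gave 2 to 5 higher and 6 to 16 lower. For 4-week BPH/2J over BPN/3J it gave 4 to 11 higher. Calls over all genes moved too, from 4362 to 7117 for 22-week BPH/2J over BPN/3J and from 4606 to 7383 by age. For 4-week BPH/2J over BPN/3J they ran from 6968 to 8682. Lower pathway genes ran from 21 to 41 for 22-week BPH/2J over BPN/3J and from 19 to 36 by age, with the highest number without 4-week BPH/2J replicate 1 in both. Scaling by library totals alone moved the share of higher among all calls in 22-week BPH/2J over BPN/3J to 62.5%, against 52% with TMM, and the 43 genes then split into 3 higher and 15 lower. Why these counts moved was not tested. Genes near the floor of 0.0921 to 0.105 CPM, Oas3 and Mx1 among the members, rest on few reads.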

Other observations

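Beyond the 43 genes, other pathway genes also stood high in BPN/3J replicate 1. Of the 140 tested pathway genes 16 exceeded 1.5 times the mean of BPN/3J replicates 2 and 3, and the median ratio was 1.05. The chemokines Cxcl9, Cxcl10 and Cxcl11, which attract activated T cells through Cxcr3, stood at ratios of 2.67, 3.10 and 3.63, and Gbp4 at 2.64. Cxcl10 measured 0.778, 0.869 and 0.805 CPM in 22-week BPH/2J, 3.00, 4.27 and 3.78 CPM in 4-week BPH/2J and 3.95, 1.39 and 1.16 CPM in BPN/3J, with the 22-week BPH/2J libraries below all others. It was 2.65-fold lower in 22-week BPH/2J than in BPN/3J (log2 fold change -1.41 ± 0.43, adjusted p = 0.0268) and 4.49-fold lower at 22 than at 4 weeks (log2 fold change -2.17 ± 0.42, adjusted p = 0.00234). The call against BPN/3J was lost without 22-week BPH/2J replicate 1, 2 or 3 or BPN/3J replicate 1 (adjusted p 0.0604 to 0.077), with a log2 fold change of -0.64 without BPN/3J replicate 1. Without that library Cxcl10 was also called higher in 4-week BPH/2J than in BPN/3J, at 1.53 (adjusted p = 0.00049), which it was not with it (log2 fold change 0.76 ± 0.38, adjusted p = 0.113). Gbp5, a guanylate-binding protein of inflammasome assembly, was 1.70-fold higher at 22 than at 4 weeks (log2 fold change 0.76 ± 0.23, adjusted p = 0.0224) and 1.99-fold lower in 4-week BPH/2J than in BPN/3J (log2 fold change -0.99 ± 0.23, adjusted p = 0.00428). Its age call was lost without 22-week BPH/2J replicate 1 or 2 or 4-week BPH/2J replicate 3 (adjusted p 0.0523 to 0.0766), and without BPN/3J replicate 1 its log2 fold change in 4-week BPH/2J against BPN/3J was -0.57 (adjusted p = 0.000823).

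The related genes Ifi27 and Ifi27l2a were called in opposite directions with age, Ifi27 higher and Ifi27l2a lower at 22 than at 4 weeks. Of the 43 genes the authors' deposited table called 3 higher and 18 lower in 22-week BPH/2J against BPN/3J, 4 higher and 13 lower by age, and 7 higher and 17 lower in 4-week BPH/2J against BPN/3J, with signs turned to that order. Of the calls given here it shared 3 and 17, 4 and 10, and 6 and 15 in the same order, and 0 were opposite.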
